A study of Mus musculus with 6 samples.

Results

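The genes described here belong to Wnt and beta-catenin signalling. The 10 members were chosen by name for their roles in the pathway, *Ctnnb1*, *Axin2*, *Tcf7l2*, *Lef1*, *Apc*, *Wnt5a*, *Sfrp1*, *Dkk3*, *Wif1* and *Fzd1*, and all 10 were found among the 24015 gene symbols counted. RNA-Seq was performed on mouse sciatic nerve at postnatal day 14, with 3 control (ctrl) and 3 knockout (cko) libraries, each from a pool of 3 nerves. The comparison asks which transcripts differ in nerves whose Schwann cells lack Rnf40, an E3 ubiquitin ligase that acts on histone H2B. Control mice had the genotype Rnf40 fl/fl and cko mice Dhh::Cre, Rnf40 fl/fl, so that both carried the floxed alleles. The labels give a mixed 129SvJ/C57Bl/6J background for all 6 libraries, whereas the methods of the study name C3H in place of 129SvJ. The *Dhh* promoter drives Cre in the Schwann cell lineage. Fibroblasts, perineurial, vascular and immune cells of the nerve also contribute RNA to every library, and these counts do not separate Rnf40 by cell type.

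In canonical Wnt signalling, a secreted Wnt ligand binds a Frizzled receptor with its co-receptor Lrp5 or Lrp6, which stops a cytoplasmic destruction complex of Axin, Apc, Gsk3 and casein kinase from marking beta-catenin for degradation. Beta-catenin then enters the nucleus and joins transcription factors of the TCF/LEF family at target genes such as *Axin2*. Secreted proteins of the Sfrp, Dkk and Wif families hold the pathway back outside the cell, and in peripheral nerve Wnt signalling is known for its part in Schwann cell development and myelination.

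The libraries held 1317167, 1992622 and 2468765 reads on genes for control replicates 1, 2 and 3, and 2184268, 1459387 and 2186710 for the cko replicates. Counts were scaled by TMM, a method that corrects for library size and composition, to a common library size, and are called normalized counts below. A single read stood for 0.798 to 1.59 normalized counts, depending on the library. The log2 fold changes are cko minus control, and a gene was called lower or higher at an adjusted p of at most 0.05 (edgeR's quasi-likelihood test, Benjamini-Hochberg adjustment) over the 11371 genes tested.

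*Rnf40*, the deleted gene (chr7:134732212-134747119 in mm9), had 130.2, 126 and 142 normalized counts in control replicates 1, 2 and 3 and 90.2, 90.4 and 94.2 in the cko replicates. All 3 cko libraries lay below all 3 control libraries, as in 21.6% of all genes tested. The log2 fold change was -0.54 with an SE of 0.14 and an adjusted p of 0.00242 (edgeR's quasi-likelihood test, Benjamini-Hochberg adjustment). Under total-count scaling it was -0.27 with an adjusted p of 0.12 from edgeR (range over alternatives 0.00235 to 0.12). Reads from cells without Cre and from exons outside the deleted part are included in these counts.

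The cko replicate 3 stood apart from the other libraries, at 20.35 on the second principal component, where the other 5 lay between -10.49 and 0.29. That component held 12.9% of the variance and the first 75.0%. On the first, control libraries lay between -24.6 and -20.9 and cko replicates 1, 2 and 3 at 28.1, 27.1 and 13.6. The cko libraries also differed among themselves in skeletal muscle transcripts. The 8 skeletal muscle markers, of which *Acta1* was the most abundant per kilobase of exon over all 6 libraries, the measure used for the most abundant gene of each list below, had normalized counts that summed to 8003, 5983 and 4395 for control replicates 1, 2 and 3 and 161, 399 and 5539 for the cko replicates. Muscle transcripts were therefore low in cko replicates 1 and 2 and present in the other 4 libraries, none of the 8 was called, and none was at 0 in any library. Results for the Wnt genes are given with all 6 libraries and, for called members, without cko replicate 3.

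Markers of the cell types of nerve also moved with genotype after TMM scaling. The TMM factors were 0.893 to 0.928 in control and 1.07 to 1.11 in cko libraries, so library totals alone would give smaller falls. Total-count scaling moved the median of all genes tested to 0.27. The falls of the fibroblast markers *Dcn* (-0.26) and *Pdgfra* (-0.27) were of about that size. The marker sums were not compared under total-count scaling. The 4 Schwann cell markers given here were called lower, 2 further markers of the list being left out for a reason other than their values, and the normalized counts of the 4 summed to 2283, 2489 and 2529 for control replicates 1, 2 and 3 and 1446, 1387 and 1347 for the cko replicates, with *S100b* as the most abundant of these 4 (log2 fold change -0.89). These sums measure RNA of the whole nerve and count no cells. Among all genes tested 16.2% were called lower, the share to set beside the marker counts here and below. Of 7 fibroblast markers, 6 were called lower, and their normalized counts summed to 77513, 75934 and 82039 for control replicates 1, 2 and 3 and 60206, 57937 and 56994 for the cko replicates, with *Col3a1* as the most abundant. Of 5 perineurial markers, 4 were called lower, and their normalized counts summed to 1777, 2007 and 2000.4 for control replicates 1, 2 and 3 and 1130.2, 949.7 and 1046 for the cko replicates, with *Cldn1* as the most abundant. *Itgb4*, chosen after its values were seen, had the largest fall of this list, from a mean of 897 in control to 277 in cko nerves. It made up most of the fall of the sum. Means of the others went from 590 to 487 (*Cldn1*), 285 to 179 (*Slc2a1*), 132 to 81.0 (*Klf5*) and 24.1 to 18.1 (*Perp*). These counts do not tell in which cell type *Itgb4* fell. In each of these lists every cko library had a lower sum than every control library after TMM scaling.

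Of 6 endothelial markers, 5 were called lower, and their normalized counts summed to 1321, 1152 and 1307 for control replicates 1, 2 and 3 and 852, 838 and 973 for the cko replicates, with *Cdh5* as the most abundant. Of 6 pericyte and smooth muscle markers, 4 were called lower, and their normalized counts summed to 1847, 1357 and 1525 for control replicates 1, 2 and 3 and 976, 994 and 1211 for the cko replicates, with *Acta2* as the most abundant. Vascular markers were thus lower in all 3 cko libraries than in all 3 control libraries by their sums after TMM scaling. Of 5 macrophage markers tested among 6, 3 were called lower, and their normalized counts summed to 568, 451 and 513 for control replicates 1, 2 and 3 and 344, 342 and 364 for the cko replicates, with *Cd68* as the most abundant. *Aif1*, the macrophage marker that was not tested, had 0 to 3 reads per library, with 0 in control replicate 3 and in cko replicate 1. Of 5 adipocyte markers, 2 were called lower, and their normalized counts summed to 1934, 1468 and 2501 for control replicates 1, 2 and 3 and 1634, 1468 and 1147 for the cko replicates, with *Fabp4* as the most abundant. All other markers had at least 1 read in every library. The part of these cell types in the changes of the Wnt genes was not tested.

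**Figure D1:**
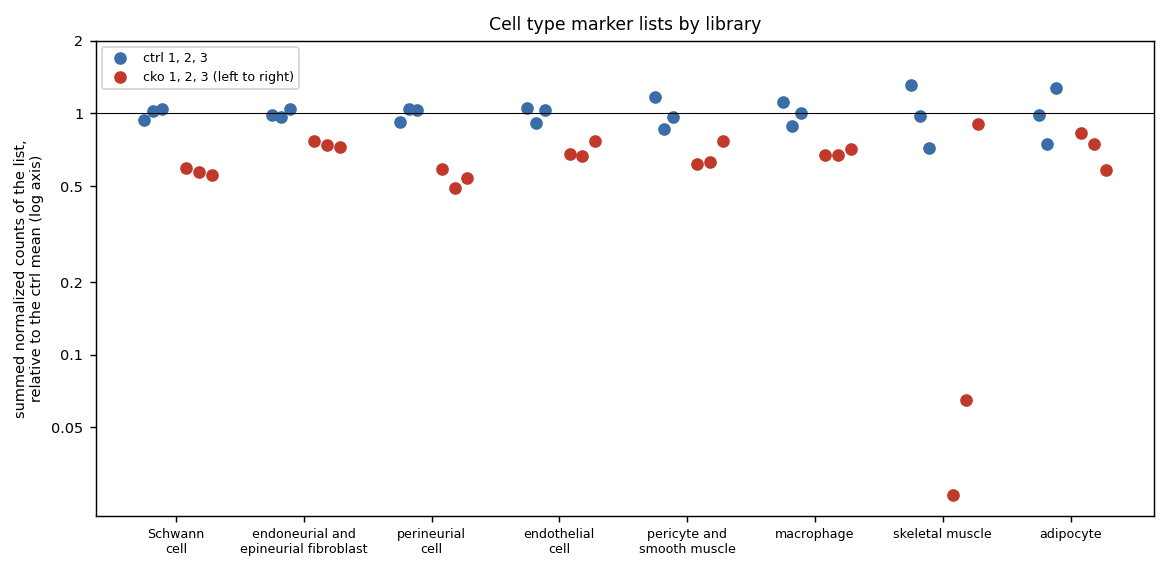
Summed normalized counts of each cell type marker list in each library, divided by the control mean, on a log axis. Blue points are control and red points cko libraries, and the skeletal muscle list is low in cko replicates 1 and 2 but not in cko replicate 3.

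Of the 10 Wnt and beta-catenin genes, 9 had enough counts to be tested. *Ctnnb1*, *Fzd1* and *Sfrp1* were called higher and *Dkk3* lower in cko nerves, 5 were not called, and *Wif1* was not tested. Across all 11371 genes tested, 31.6% were called in either direction, 16.2% lower and 15.4% higher. By the study's limits, which add a minimum of 0.8 for the size of the log2 fold change and of 20 normalized counts for the mean of all libraries, only *Sfrp1* was called among the members, beside 5.05% lower and 3.73% higher among all genes. The median log2 fold change was -0.11 for the 9 members tested and -0.0026 for all genes tested. Without cko replicate 3 the same 4 members were called.

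**Figure D2:**
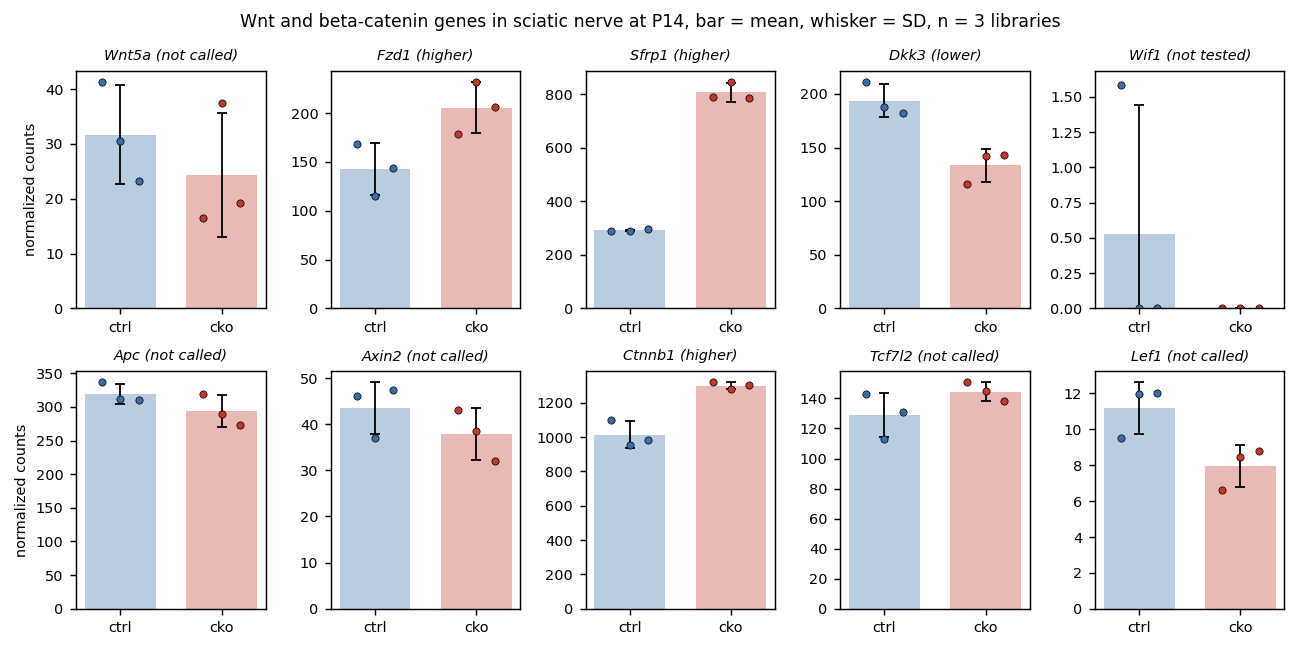
Normalized counts of the 10 members in each library (points), with the mean (bar) and SD (whisker) of 3 control and 3 cko libraries, on linear axes that start at 0. All cko points lie above the control points for *Fzd1*, *Sfrp1* and *Ctnnb1* and below them for *Dkk3* and *Lef1*, of which *Lef1* was not called. Among all genes tested, all cko values lay above all control values in 22.0% and below them in 21.6%.

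Levels between genes were compared as normalized counts per kilobase of exon. In control nerves the level was 199 ± 15.2 for *Ctnnb1* (SD, n = 3), the highest of the members. It was 66.8 ± 0.594 for *Sfrp1* and 57.7 ± 4.57 for *Dkk3*, followed by 32.6 ± 6.04 for *Fzd1*. Lower levels per kilobase were those of *Apc* (20.3 ± 0.950), *Tcf7l2* (14.8 ± 1.70), *Axin2* (7.90 ± 1.02), *Wnt5a* (4.05 ± 1.16) and *Lef1* (1.29 ± 0.166). In cko nerves the level per kilobase of *Fzd1* (47.0 ± 6.01) was above that of *Dkk3* (39.8 ± 4.58), a gap smaller than the sum of their SDs. The level of *Sfrp1* per kilobase in cko nerves was 185 ± 7.80, next to 255 ± 3.82 for *Ctnnb1*.

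*Wnt5a* (chr14:29317936-29340633), a ligand known mainly for signalling without beta-catenin, had 41.3, 30.5 and 23.2 normalized counts in control replicates 1, 2 and 3 and 16.6, 37.4 and 19.2 in the cko replicates. The groups overlapped, with the highest value in control replicate 1 and the next in cko replicate 2. Its log2 fold change was -0.39 with a 95% interval of -0.99 to 0.22 and an adjusted p of 0.345 (edgeR's quasi-likelihood test, Benjamini-Hochberg adjustment), on 20 to 31 reads per library. The log2 fold change lay between -0.77 and -0.16 with any 1 library left out, with -0.77 without cko replicate 2 and -0.16 without cko replicate 1. Under total-count scaling it was -0.12, also not called.

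Of 19 Wnt ligand genes found, 4 were tested, 2 of them were called lower and 0 higher by edgeR. That was 50% of only 4 genes, beside 31.6% called in either direction among all genes tested. *Wnt6*, the most abundant ligand gene, had 31.8, 43.6 and 40.5 normalized counts in control replicates 1, 2 and 3 and 20.7, 24.1 and 23.1 in the cko replicates. All cko values were under all control values. The log2 fold change was -0.79 with an SE of 0.25 and an adjusted p of 0.0125 (edgeR's quasi-likelihood test, Benjamini-Hochberg adjustment), but the call was lost without control replicate 2 (-0.71), control replicate 3 (-0.76) or cko replicate 1 (-0.72). *Wnt9a* had 7, 20 and 22 reads in control replicates 1, 2 and 3 and 8, 4 and 15 in the cko replicates. The groups overlapped in normalized counts, and the log2 fold change was -1.12 with an SE of 0.40 and an adjusted p of 0.0278 (edgeR's quasi-likelihood test, Benjamini-Hochberg adjustment). This call was lost without control replicate 2 (-0.95), control replicate 3 (-1.07), cko replicate 1 (-0.97) or cko replicate 2 (-0.92). *Wnt2b*, chosen after its values were seen, was the remaining ligand gene tested, at a log2 fold change of 0.37. *Wnt3a* and *Wnt8a* had 0 reads in all 6 libraries. The other 13 ligand genes below the filter had between 0 and 9 reads per library and were not tested.

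*Fzd1* (chr5:4753842-4758216), which encodes a Frizzled receptor, had 168, 116 and 144 normalized counts in control replicates 1, 2 and 3 and 179, 231 and 207 in the cko replicates. All cko libraries lay above all control libraries, with a narrow gap between control replicate 1 and cko replicate 1. The mean was 143 ± 26.4 in control and 206 ± 26.3 in cko nerves (SD, n = 3 each), a 1.44-fold change. The log2 fold change was 0.54 with an SE of 0.13 and an adjusted p of 0.00136 (edgeR's quasi-likelihood test, Benjamini-Hochberg adjustment). It was 0.54 without cko replicate 3 and 0.81 under total-count scaling. Of the 14 genes tested among 16 receptors and co-receptors, 2 were called higher and 1 lower (21.4%, beside 31.6% of all genes tested). *Ryk*, the most abundant per kilobase, was not called (0.13). *Lrp6*, a co-receptor of the canonical pathway, was the other gene called higher (0.32), a call lost without control replicate 3 (0.26). *Fzd3* was called lower (-0.55), and both were chosen after their values were seen.

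*Sfrp1* (chr8:24521974-24560104) encodes a secreted protein that binds Wnt ligands and Frizzled receptors. It had 291, 291 and 295 normalized counts in control replicates 1, 2 and 3 and 789, 846 and 785 in the cko replicates. The cko libraries were all far above the control libraries. The control libraries, on 183, 267 and 343 reads, differed by less than counting error, so that their SD understates the uncertainty. The mean was 292 ± 2.60 in control and 807 ± 34.1 in cko nerves (SD, n = 3 each), a 2.76-fold rise. On the log2 scale the change was 1.46 with an SE of 0.09 and an adjusted p of 2.25e-15 (edgeR's quasi-likelihood test, Benjamini-Hochberg adjustment) and placed *Sfrp1* at rank 60 by p and at rank 223 by size of rise among the 11371 genes tested. It lay between 1.43 and 1.49 with any 1 library left out and was 1.49 without cko replicate 3 and 1.73 under total-count scaling.

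*Dkk3* (chr7:119259533-119302571), a divergent member of the Dickkopf family of secreted proteins, had 211, 187 and 182 normalized counts in control replicates 1, 2 and 3 and 116, 142 and 143 in the cko replicates. All cko libraries were below all control libraries. The mean was 194 ± 15.3 in control and 134 ± 15.4 in cko nerves (SD, n = 3 each). On the log2 scale the change was -0.53 with an SE of 0.12 and an adjusted p of 0.00091 (edgeR's quasi-likelihood test, Benjamini-Hochberg adjustment) and -0.58 without cko replicate 3. Under total-count scaling, which moved the median of all genes tested to 0.27, it was -0.26 with an adjusted p of 0.099 from edgeR (range over alternatives 0.000313 to 0.099). *Wif1* (chr10:120471016-120537706), which encodes a secreted inhibitor that binds Wnt ligands, had 1 read in control replicate 1 and 0 in the other 5 libraries. A count of 0 allows up to 3 reads, or 1.22 to 2.06 CPM in these 5 libraries (counts scaled to library totals), for counting error only, and no fold is given.

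Of 16 genes for secreted inhibitors and their receptors, 9 were tested, 4 were called lower and 2 higher. That was 66.7% of those tested, beside 31.6% of all genes tested. *Sfrp5*, the most abundant, was lower at a log2 fold change of -0.30 with an adjusted p of 0.0279 (edgeR's quasi-likelihood test, Benjamini-Hochberg adjustment), a call lost without control replicate 2 (-0.13) or cko replicate 1 (-0.26) and under total-count scaling (-0.024). *Dkk2* had 55.6, 53.4 and 64.6 normalized counts in control replicates 1, 2 and 3 and 24.0, 32.5 and 23.1 in the cko replicates. All cko libraries were below all control libraries, with a log2 fold change of -1.16 with an SE of 0.22 and an adjusted p of 8.06e-05 (edgeR's quasi-likelihood test, Benjamini-Hochberg adjustment). *Sfrp4* (-0.65) and *Frzb* (0.62), which encode further Wnt-binding proteins, were chosen after their values were seen. *Sfrp1* and *Frzb* thus rose while *Sfrp4*, *Sfrp5*, *Dkk2* and *Dkk3* fell, and total-count scaling reversed none of the 6, although *Sfrp5* and *Dkk3* lost their calls under it. *Dkk1* and *Dkk4* had 0 reads in all 6 libraries.

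Among 11 genes of Wnt secretion and of the R-spondin axis, which sets the amount of Frizzled at the cell surface, 7 were tested. Of these, 1 was called higher and 0 lower by edgeR (14.3%, beside 31.6% of all genes tested). *Lgr4*, a receptor for R-spondins, was the most abundant over all libraries, though in control nerves *Wls* and *Rspo1* had higher levels per kilobase (27.6 ± 2.71 and 24.3 ± 1.81, against 23.0 ± 1.89, SD, n = 3). *Lgr4* had 124, 146 and 137 normalized counts in control replicates 1, 2 and 3 and 249, 205 and 186 in the cko replicates. All cko libraries were above all control libraries, with a log2 fold change of 0.65 with an SE of 0.12 and an adjusted p of 9.04e-05 (edgeR's quasi-likelihood test, Benjamini-Hochberg adjustment).

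*Apc* (chr18:34380578-34481843), a scaffold of the destruction complex, had 337, 312 and 309.9 normalized counts in control replicates 1, 2 and 3 and 319.6, 289 and 274 in the cko replicates. The groups overlapped, and the log2 fold change was -0.11 with a 95% interval of -0.32 to 0.09 and an adjusted p of 0.421 (edgeR's quasi-likelihood test, Benjamini-Hochberg adjustment) and changed direction under total-count scaling (0.15). With any 1 library left out it lay between -0.17 (without cko replicate 1) and -0.048 (without cko replicate 3). *Axin2* (chr11:108781663-108812097), a scaffold of the same complex and a widely used beta-catenin target, had 46.0, 37.0 and 47.3 normalized counts in control replicates 1, 2 and 3 and 43.1, 38.6 and 31.9 in the cko replicates. The groups overlapped, with the lowest value in cko replicate 3 and the highest in control replicate 3. Its log2 fold change was -0.20 with a 95% interval of -0.65 to 0.24 and an adjusted p of 0.517 (edgeR's quasi-likelihood test, Benjamini-Hochberg adjustment) and also changed direction under total-count scaling (0.064). With any 1 library left out it ran from -0.31 (without control replicate 2) to -0.072 (without cko replicate 3).

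All 19 genes of the destruction complex and other cytoplasmic transducers were tested, 7 were called higher and 2 lower. That was 47.4%, beside 31.6% of all genes tested. *Gsk3a*, the most abundant per kilobase, was called higher (0.37), a call lost without control replicate 1 (0.29). *Axin1* (0.56), *Fbxw11* (0.36), *Tnks* (0.49) and *Nkd1* (0.66) were also called higher and chosen after their values were seen. Of these calls, that of *Axin1* was lost without control replicate 3 (0.48) or cko replicate 3 (0.44), that of *Fbxw11* without control replicate 1 (0.33), control replicate 3 (0.30), cko replicate 1 (0.35) or cko replicate 2 (0.35) and that of *Tnks* without control replicate 1 (0.48), control replicate 2 (0.50), control replicate 3 (0.49) or cko replicate 1 (0.46). *Gsk3b*, which encodes the kinase that phosphorylates beta-catenin, had 299, 299 and 263 normalized counts in control replicates 1, 2 and 3 and 509, 568 and 468 in the cko replicates. Its log2 fold change was 0.85 with an SE of 0.10 and an adjusted p of 1.64e-08 (edgeR's quasi-likelihood test, Benjamini-Hochberg adjustment), with all cko libraries above all control libraries. *Btrc*, which encodes the F-box protein that recognizes phosphorylated beta-catenin, had 95.3, 108 and 102 normalized counts in control replicates 1, 2 and 3 and 197, 176 and 176 in the cko replicates. Its groups did not overlap either, at a log2 fold change of 0.84 with an SE of 0.13 and an adjusted p of 2.32e-06 (edgeR's quasi-likelihood test, Benjamini-Hochberg adjustment). *Apc2*, a relative of *Apc*, had 60.3, 65.4 and 75.7 normalized counts in control replicates 1, 2 and 3 and 14.9, 19.3 and 35.1 in the cko replicates. It was lower in all cko libraries, with cko replicate 3 the highest of them, at a log2 fold change of -1.52 with an SE of 0.24 and an adjusted p of 4.56e-06 (edgeR's quasi-likelihood test, Benjamini-Hochberg adjustment). *Csnk1e* (-0.35), chosen after its values were seen, was the other gene called lower, a call lost without control replicate 1 (-0.34), control replicate 3 (-0.36) or cko replicate 2 (-0.33).

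*Ctnnb1* (chr9:120838334-120869625), which encodes beta-catenin, a protein of cell junctions as well as of Wnt signalling, had 1102, 957 and 981 normalized counts in control replicates 1, 2 and 3 and 1319, 1280.0 and 1301 in the cko replicates. Every cko library exceeded every control library. The mean was 1013 ± 77.8 in control and 1299.9 ± 19.5 in cko nerves (SD, n = 3 each), a 1.28-fold change. This gave a log2 fold change of 0.36 with an SE of 0.09 and an adjusted p of 0.00123 (edgeR's quasi-likelihood test, Benjamini-Hochberg adjustment). It lay between 0.32 and 0.42 with any 1 library left out and was 0.37 without cko replicate 3 and 0.63 under total-count scaling. *Ctnnb1* overlaps *Ulk4* and *4930593C16Rik* on the opposite strand in the mm9 annotation, and the strand setting of the counting is not stated, so that reads of the opposite strand cannot be told apart. The same holds for *Apc*, which overlaps *Gm10548*, while the genes opposite *Axin2* (*Gm11670*) and *Wnt5a* (*Gm2670*) are not among the symbols counted. These counts measure transcript, not the stability or place of the protein.

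*Tcf7l2* (chr19:55816300-56008144), a TCF/LEF factor through which beta-catenin acts, had 143, 113 and 131 normalized counts in control replicates 1, 2 and 3 and 151, 145 and 138 in the cko replicates. The groups overlapped, and the log2 fold change was 0.17 with a 95% interval of -0.09 to 0.44 and an adjusted p of 0.339 (edgeR's quasi-likelihood test, Benjamini-Hochberg adjustment). It lay between 0.084 (without control replicate 2) and 0.23 (without control replicate 1) with any 1 library left out. Under total-count scaling it was called, at 0.44 with an adjusted p of 0.00733 from edgeR (range over alternatives 0.00733 to 0.712). *Lef1* (chr3:130813389-130927274), another factor of the family, had 6, 11 and 14 reads in control replicates 1, 2 and 3 and 8, 7 and 11 in the cko replicates. After scaling, all cko libraries lay below all control libraries, but the log2 fold change of -0.52 with a 95% interval of -1.36 to 0.33 and an adjusted p of 0.369 (edgeR's quasi-likelihood test, Benjamini-Hochberg adjustment) was not called. Under total-count scaling it was -0.25, also not called.

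All 15 genes of nuclear beta-catenin, TCF/LEF factors and their cofactors were tested, 5 were called higher and 2 lower, and *Ctnnb1* was the most abundant. The share called was 46.7%, beside 31.6% of all genes tested. *Tcf7*, a further TCF/LEF gene, had 5, 5 and 19 reads in control replicates 1, 2 and 3 and 24, 21 and 25 in the cko replicates. All cko libraries were above all control libraries after scaling. The log2 fold change was 1.02 with an SE of 0.37 and an adjusted p of 0.032 (edgeR's quasi-likelihood test, Benjamini-Hochberg adjustment), but the call was lost without control replicate 1 (0.91), control replicate 2 (0.71), cko replicate 1 (1.09) or cko replicate 2 (0.92). Without control replicate 3, the highest of the controls, it rose to 1.70. *Tle2*, which encodes a corepressor of TCF/LEF factors, had 63.5, 54.5 and 56.8 normalized counts in control replicates 1, 2 and 3 and 30.6, 30.1 and 35.9 in the cko replicates. It was lower in all cko libraries, at a log2 fold change of -0.83 with an SE of 0.21 and an adjusted p of 0.00185 (edgeR's quasi-likelihood test, Benjamini-Hochberg adjustment). *Tle1* (-0.65), of the same family, was the other gene called lower, and *Bcl9* (0.54), *Cby1* (0.55) and *Tle3* (0.30) were further genes called higher, all 4 chosen after their values were seen. The call of *Cby1* was lost without control replicate 3 (0.43) or cko replicate 2 (0.47), and that of *Tle3* without control replicate 1 (0.23), control replicate 2 (0.37), control replicate 3 (0.31), cko replicate 2 (0.18) or cko replicate 3 (0.30).

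Of 17 genes listed as common beta-catenin targets, 13 were tested, 2 were called higher and 2 lower, and their median log2 fold change was -0.20. The share called was 30.8%, near the 31.6% of all genes tested. *Ccnd1*, the most abundant over all libraries but below *Nkd1* in cko nerves, had a log2 fold change of -0.21 and was not called. *Nkd1* (0.66) and *Tcf7* were the genes called higher. *Wisp1* (-0.65) and *Apcdd1* (-0.55) were called lower, the call of *Apcdd1* being lost without control replicate 2 (-0.55), control replicate 3 (-0.46), cko replicate 1 (-0.48) or cko replicate 2 (-0.56). It was also lost with the replicate number as a block (adjusted p 0.0504) and without the low-count filter (0.054), both from edgeR. *Nkd1*, *Wisp1* and *Apcdd1* were chosen after their values were seen. Among 11 genes of the planar cell polarity branch, which signals without beta-catenin, 10 were tested, 2 were called higher and 1 lower. This share of 30% was also near that of all genes tested. *Celsr2*, the most abundant over all libraries but below *Daam2* in cko nerves, was not called (0.17). *Daam2* (0.69), *Vangl1* (0.47) and *Daam1* (-0.66), chosen in the same way, were those called, and *Vangl1* lost its call without control replicate 1 (0.46), control replicate 2 (0.34), cko replicate 1 (0.49) or cko replicate 2 (0.37).

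The 8 lists together held 112 distinct genes, the 10 members included. Of these, 82 were tested, 19 were called higher and 14 lower, beside 15.4% higher and 16.2% lower among all genes tested. Their median log2 fold change was -0.038. By the study's limits 3 were higher and 3 lower. Under total-count scaling 28 were called higher and 6 lower, beside 33.1% and 7.74% of all genes tested, and with DESeq2 12 and 9, beside 10.3% and 11.3%. Of the genes named, *Wnt6*, *Wnt9a*, *Dkk3*, *Sfrp5*, *Csnk1e*, *Tle1*, *Apcdd1* and *Daam1* were not called under total-count scaling, while *Ryk*, *Celsr2* and *Tcf7l2* were called higher under it. *Wnt6*, *Wnt9a*, *Tcf7*, *Sfrp5*, *Axin1*, *Fbxw11*, *Tnks*, *Csnk1e*, *Cby1*, *Tle3*, *Apcdd1* and *Vangl1* were not called with DESeq2. Their log2 fold changes with DESeq2 stayed close to those of edgeR, such as 1.07 against 1.02 for *Tcf7* and -0.78 against -0.79 for *Wnt6*. The number called lower was 10 without control replicate 2 or 3, against 14 with all libraries, and the number called higher was 13 without control replicate 1 or 3, against 19. Calls among all genes tested fell as well. Without control replicate 2 or 3, 1519 of 11729 and 1439 of 11615 were called lower, against 1841 of 11371. Those called higher without control replicate 1 or 3 were 1498 of 11706 and 1293 of 11615, against 1756 of 11371.

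**Figure D3:**
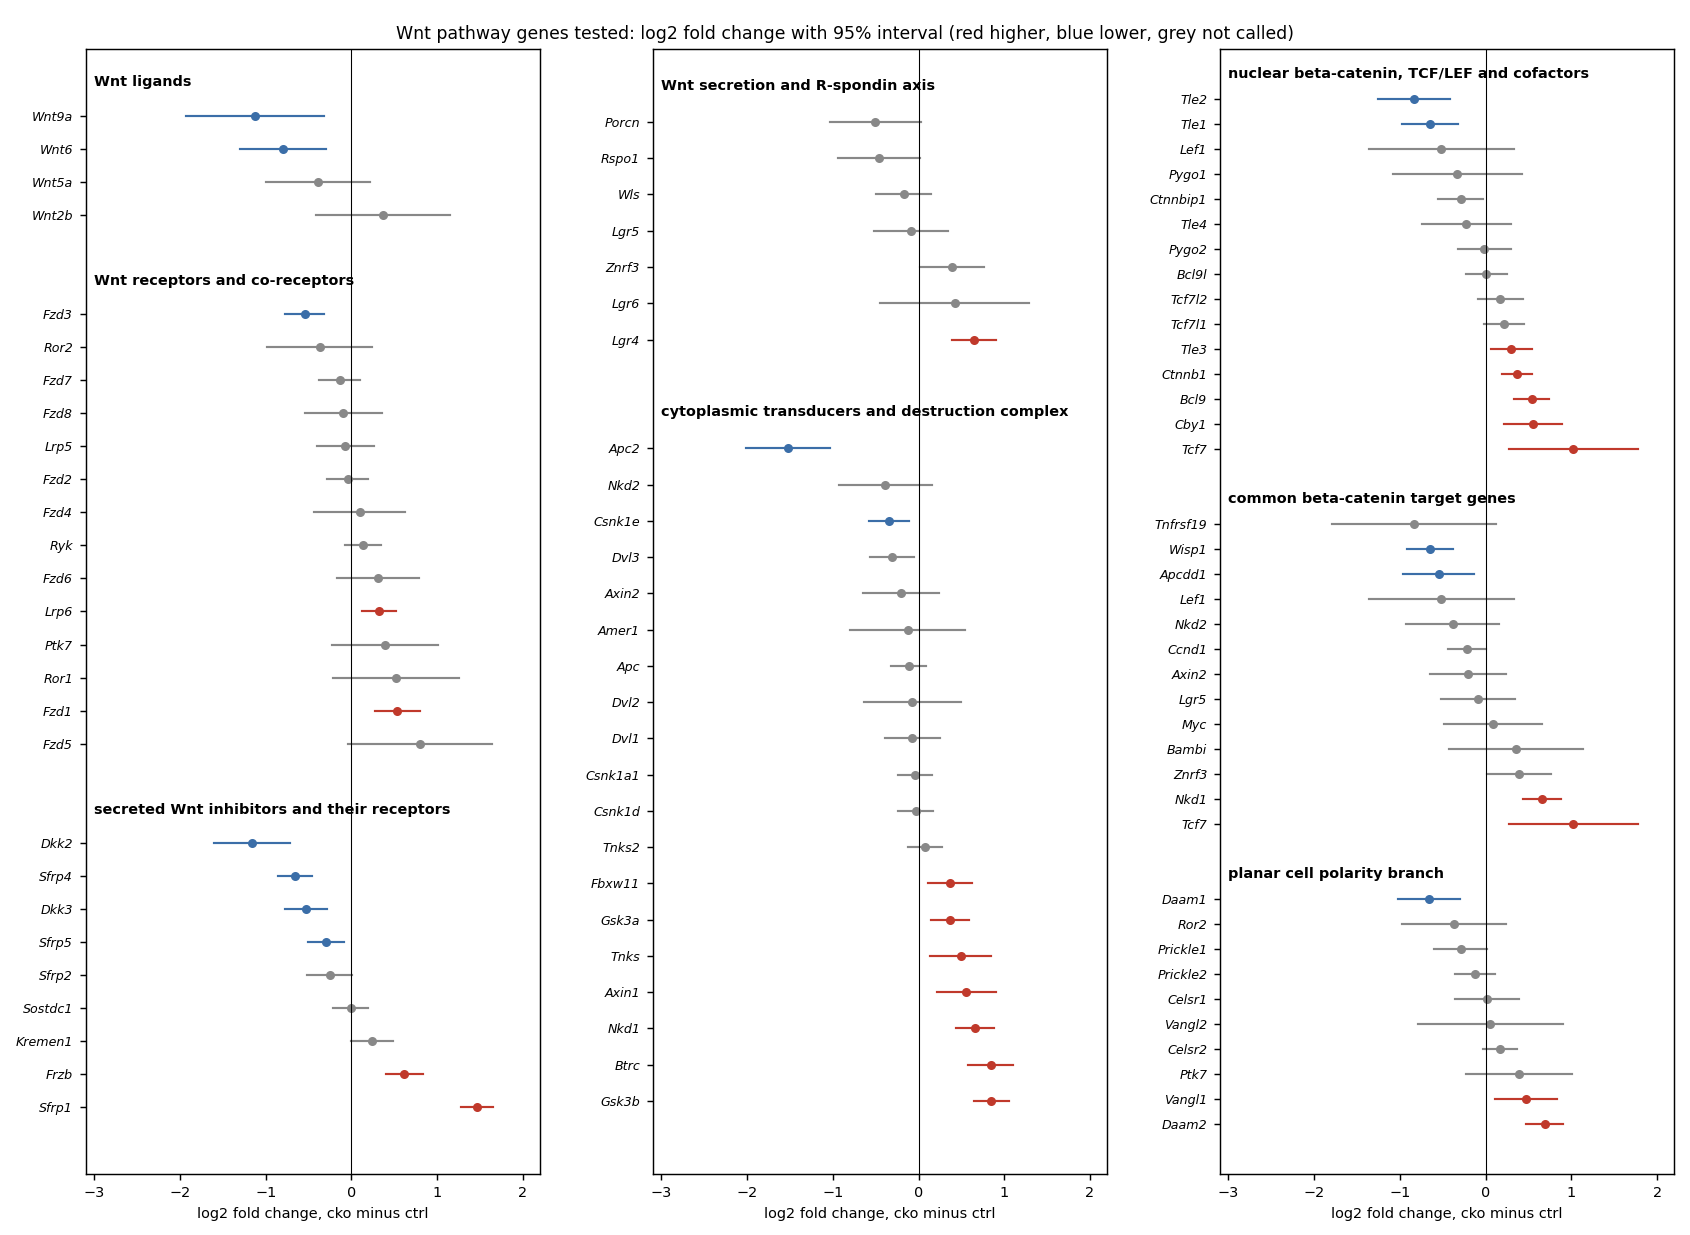
Log2 fold change (cko minus control) of each tested gene of the 8 Wnt lists, with its 95% interval, after TMM scaling. Red genes were called higher, blue genes lower and grey genes were not called, and both directions occur in most lists.

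Promoter windows from 250 bases before to 50 bases after the start, from RefSeq (GRCm38.p6), were available for 75 of the pathway genes, 6 members among them, in 102 windows. They were searched on both strands for the TCF/LEF letters CTTTGAT or CTTTGTT, since this family carries the output of the pathway. These letters occurred in 9.80% of the pathway windows and in 9.33% of all 32851 windows. They were searched in the same way for GCGTGGGCG or GCGGGGGCG, letters bound by the EGR family, to which the myelination factor Egr2 belongs. The EGR letters occurred in 12.7% of the pathway windows and in 3.47% of all windows. The 13 pathway windows with EGR letters were of 12 genes, since overlapping windows of *Csnk1e* hold the same match. The mean GC content was 65.4% in the pathway windows and 53.8% in all windows, and its part in the difference was not tested. The windows printed here, chosen after the matches were seen, are those of the called genes *Wnt6* and *Tle2* and both windows of the member *Tcf7l2*, with the matched letters in capitals. Matches not printed lie in windows of *Tcf7*, called higher, and *Csnk1e*, called lower (EGR letters), of *Apc2*, called lower (TCF/LEF letters), of the member *Wif1* (EGR letters) and of genes not called or not tested. The windows lie at chr1:74771642-74771941 for *Wnt6*, chr10:81575037-81575336 for *Tle2* and chr19:55741560-55741859 and chr19:55895071-55895370 for *Tcf7l2*, all on the plus strand. The first matched base is 47, 85, 93 and 14 bases before the start in this order, and in *Wnt6* and the first *Tcf7l2* window the match is on the minus strand. A match describes the letters alone.
Wnt6: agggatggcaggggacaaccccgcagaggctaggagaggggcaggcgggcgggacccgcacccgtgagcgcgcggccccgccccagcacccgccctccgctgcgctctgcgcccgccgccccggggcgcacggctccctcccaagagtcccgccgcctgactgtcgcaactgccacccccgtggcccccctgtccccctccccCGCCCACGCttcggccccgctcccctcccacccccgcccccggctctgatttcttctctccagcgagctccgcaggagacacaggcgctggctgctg
Tle2: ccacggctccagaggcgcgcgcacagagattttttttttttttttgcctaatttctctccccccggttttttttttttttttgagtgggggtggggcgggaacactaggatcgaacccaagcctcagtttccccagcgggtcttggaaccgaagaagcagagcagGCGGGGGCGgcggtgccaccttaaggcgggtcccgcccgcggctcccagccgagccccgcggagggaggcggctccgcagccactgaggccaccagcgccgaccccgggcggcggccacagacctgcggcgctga
Tcf7l2 first window: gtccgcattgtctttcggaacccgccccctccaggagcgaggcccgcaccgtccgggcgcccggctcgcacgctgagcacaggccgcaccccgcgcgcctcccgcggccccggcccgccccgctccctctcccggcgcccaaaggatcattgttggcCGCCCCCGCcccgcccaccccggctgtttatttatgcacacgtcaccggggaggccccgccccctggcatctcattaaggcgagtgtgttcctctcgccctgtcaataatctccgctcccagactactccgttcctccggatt
Tcf7l2 second window: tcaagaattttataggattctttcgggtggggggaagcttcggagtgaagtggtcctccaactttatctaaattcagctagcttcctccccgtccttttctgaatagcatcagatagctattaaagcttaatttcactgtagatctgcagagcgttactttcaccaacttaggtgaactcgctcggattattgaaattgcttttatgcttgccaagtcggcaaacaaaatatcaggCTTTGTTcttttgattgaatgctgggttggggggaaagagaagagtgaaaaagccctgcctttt

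**Figure D4:**
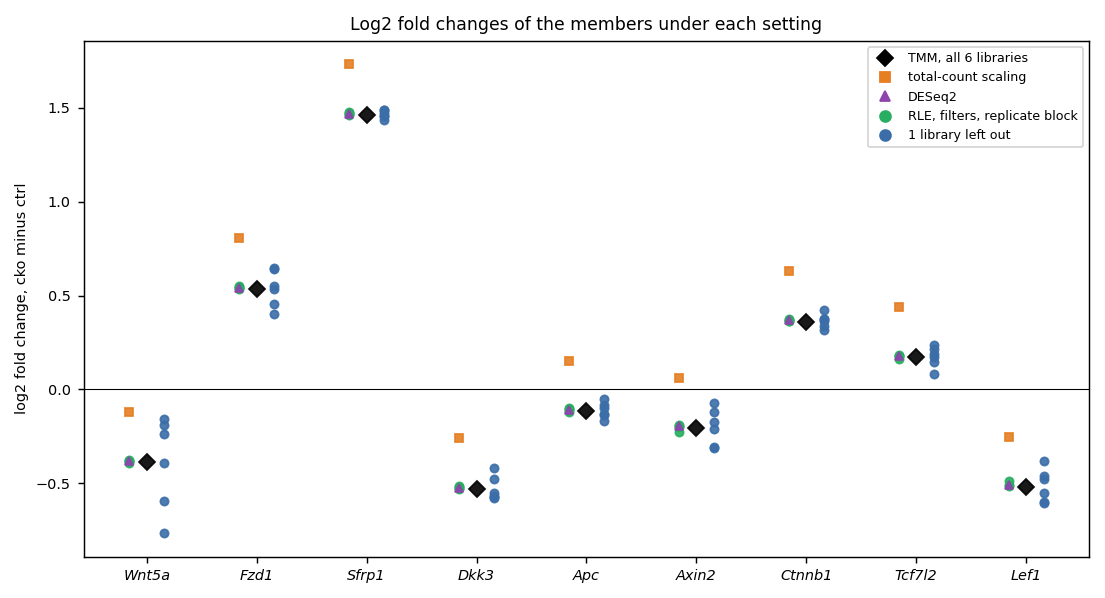
Log2 fold change (cko minus control) of the 9 members tested under TMM scaling with all 6 libraries (black), total-count scaling (orange), DESeq2 (purple), RLE scaling, other filters or the replicate block (green) and with 1 library left out (blue). Total-count scaling lies above the TMM value in every member, by the shift it gives all genes, and turns the direction of *Apc* and *Axin2*.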

How the data were processed

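RNA-Seq of 3 control and 3 cko libraries was used, grouped by the genotype and replicate in the labels. Per the methods, TopHat placed the reads on mm9 and HTSeq assigned those with a single location to genes. The authors deposited the resulting counts per symbol, unnormalized. The annotation and strand setting of the counting are not stated. A directional library kit is named in the methods but NEB Next Ultra in the labels, and the submitters' processing notes also list mm10 and Bowtie2 2.1.0. The tables hold 24015 symbols and 0 entries for reads without a gene. Totals ran from 1317167 to 2468765 counts, so that genes with a few reads have no usable estimate. Replicates differed by more than sampling noise (chi-square per degree of freedom 1.78 to 5.21).

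In R 4.3.3, edgeR 4.0.16 (filterByExpr, TMM, robust quasi-likelihood fit, genotype as the term) tested 11371 genes, with Benjamini-Hochberg adjustment. Normalized counts are scaled to the arithmetic mean of the effective library sizes. The geometric mean was tried as well, after earlier results of these data were seen to give other counts under the study's limits. It changes normalized counts and base means but no test, and moves the calls under the study's limits among all genes from 574 lower and 424 higher to 567 and 415. The latter equal the earlier counts, and the arithmetic mean was kept.

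Alternatives were RLE or total-count scaling, DESeq2 1.42.0, no filter or at least 10 counts in every library, a replicate block, each library left out and the study's limits. Alternatives for *Rnf40* and for called pathway genes other than members were added after the data were seen. Locations and exon lengths are from GENCODE vM1 (mm9), in which 20763 symbols occur once, and promoters from RefSeq GRCm38.p6. Members and lists were chosen with earlier results of these data known. Genes named are the members, *Rnf40*, pathway genes called whose log2 fold change is 0.8 or more in size, and the most abundant gene of each list per kilobase, among genes with an exon length. All other genes named were chosen after their values were seen. The Schwann cell list was reduced to 4 markers after the data were seen, for a reason other than the values.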

Additional observations from a re-analysis of the deposited data

How the results depend on the processing

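Member calls stood at 1 lower and 3 higher under RLE scaling, DESeq2, both other filters, the replicate block and each of the 6 fits without 1 library. Total-count scaling, which moved the median log2 fold change of all genes tested to 0.27, gave 0 lower and 4 higher members, and reversed *Axin2* (0.064) and *Apc* (0.15). The study's limits gave 0 lower and 1 higher member. Of the 112 pathway genes, 14 were called lower and 19 higher, against 6 and 28 under total-count scaling, 9 and 12 with DESeq2 and 3 and 3 by the study's limits. Among all genes tested, 7.74% were lower and 33.1% higher under total-count scaling and 11.3% and 10.3% with DESeq2. Base means on the geometric mean of the library sizes, an alternative chosen after seeing the data, gave the same member and pathway counts by the study's limits (0 and 1, 3 and 3). Without 1 library the pathway counts ran from 10 to 15 lower and from 13 to 17 higher. Among all genes tested in these fits, 1439 to 1992 were called lower and 1293 to 1915 higher. With all libraries it was 1841 and 1756. The replicate block gave 1 and 3 members and 14 and 19 pathway genes, without *Apcdd1* and with *Dvl3* in addition. Libraries of the same number did not pair, with correlations across 11371 genes of deviations from the group mean of -0.095, -0.015 and -0.062, genes not being independent replicates. The cause of these differences was not tested. Depth limits *Lef1*, *Wif1* and most ligand genes.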
